A study of Mus musculus with 4 samples.

Results

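The 9 genes described here are 7 claudins (Cldn1, Cldn3, Cldn4, Cldn6, Cldn7, Cldn8 and Cldn12), occludin (Ocln) and zonula occludens 1 (Tjp1). They were taken as every non-control probe that carries one of these gene names on a mouse expression array, which gave 12 probes: 3 genes had 2 probes and 6 had 1. All 12 probes passed the filter on dim probes, among 35563 of 41174 probes that did, and the 9 genes are 9 of 24026 named genes. The genes were chosen by their genotype ratios on these same arrays, with results in view, so those ratios are given as a description with no test.

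Cultured epidermal keratinocytes came from mice of age P3 that carried K5-Cre and a floxed Casp8 allele together with a null allele, written F/-, or with a normal allele, written F/+. In K5-Cre mice the keratin 5 promoter directs the recombinase to the basal layer of the epidermis, and Casp8 makes the protease caspase-8, which starts apoptosis downstream of death receptors. All groups therefore shared K5-Cre and 1 floxed allele. Cells of 2 mice per genotype were cultured without serum, on a medium supplemented with EGF and an extract of bovine pituitary, and RNA was taken at passage 1 and passage 3, giving 8 RNA samples. On each of 4 arrays a pair of mice was co-hybridised, F/- in the Cy3 dye against F/+ in Cy5, with 2 arrays per passage. For the F/+ RNA of the passage 3 arrays, 1 label gives the first passage, while the titles, descriptions and passage entries give passage 3, which was followed; the F/+ changes with passage rest on that reading.

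Tight junctions seal the space between epithelial cells. Claudins are membrane proteins that form the paired strands of the junction and set which ions and solutes pass; occludin joins the strands, and the scaffold protein Tjp1 ties them to actin. In the epidermis the functional junctions lie in the granular layer, and Cldn1 is the claudin whose loss opens the skin barrier in mice.

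The promoters of Cldn4, Cldn3 and Cldn1 are shown because Cldn4 and Cldn1 carry the contrast described here, and because Cldn3 is the next protein-coding gene beside Cldn4 on chromosome 5 of the RefSeq annotation. Each line holds 250 bases before the annotated gene start from RefSeq, build GRCm38.p6, read 5′ to 3′ on the gene's strand. Cldn4 is at chr5:134946935-134947184 on the minus strand, Cldn3 at chr5:134985964-134986213 on the plus strand and Cldn1 at chr16:26371840-26372089 on the minus strand. Capitals mark matches, on either strand, to a GC box (GGGCGG), an AP-1 site (TGANTCA) or a Snail-type E-box (CACCTG).

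Cldn4: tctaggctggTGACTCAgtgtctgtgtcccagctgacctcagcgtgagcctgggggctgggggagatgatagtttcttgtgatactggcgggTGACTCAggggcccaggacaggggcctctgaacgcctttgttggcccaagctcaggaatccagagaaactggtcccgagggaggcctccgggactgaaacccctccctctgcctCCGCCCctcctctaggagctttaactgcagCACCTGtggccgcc
Cldn3: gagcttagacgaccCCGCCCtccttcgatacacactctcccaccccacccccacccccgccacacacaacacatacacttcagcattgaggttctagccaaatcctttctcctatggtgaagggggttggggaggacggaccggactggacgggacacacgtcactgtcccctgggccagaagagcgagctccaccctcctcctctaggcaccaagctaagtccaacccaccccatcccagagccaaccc
Cldn1: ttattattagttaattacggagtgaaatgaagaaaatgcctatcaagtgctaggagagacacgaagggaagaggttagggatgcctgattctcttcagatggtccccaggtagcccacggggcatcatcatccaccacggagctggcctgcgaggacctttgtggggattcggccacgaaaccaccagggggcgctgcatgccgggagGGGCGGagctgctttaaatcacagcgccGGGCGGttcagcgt

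The Cldn4 window held 2 AP-1 letter matches, 240 and 158 bases before the start, a GC box 44 bases before it and a CACCTG 14 bases before it. The Cldn3 window held a GC box at 236 bases. The Cldn1 window held GC boxes at 42 and 14 bases. In the windows before Cldn7 (250 bases) and Cldn6 (233 bases), Cldn6 had a GC box at 123 bases and a CACCTG at 76, and Cldn7 had none of the motifs. A TATAAA and a grainyhead site (AACNGGTT) were also searched and were not in these 5 windows. None of the matches overlapped another. Of 32851 RefSeq promoter windows, 32.7% held the GC box, 6.75% the AP-1 letters, 17.2% the CACCTG, 12.4% the TATAAA and 1.79% the grainyhead letters.

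Per channel, the share of gene spots well above background ranged from 75.8% to 87.9%, and no spot was saturated. No array had the dyes exchanged, so a dye effect adds to every genotype ratio and cannot be told apart from it; in the difference between passages it cancels if it was equal on all arrays. The Casp8 probe gave log2 ratios of F/- over F/+ of 0.42, 0.18, 0.47 and -0.20 (mean 0.21 ± 0.31, SD, n = 4). Where it lies relative to the deleted part is not known here. It therefore does not check the labels, and F/- and F/+ below mean the RNA labelled so. In these bulk samples, fewer cells of a type and less RNA per cell cannot be told apart.

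Cldn4 was higher in F/- than in F/+ cells on every array, and it was the gene with the highest ratio among the 9 on each of them. Cldn4 forms a claudin that tightens the paracellular path, in particular against sodium. Its log2 ratio, the log2 of F/- over F/+ intensity, was 1.23 and 1.86 on the passage 1 arrays of pairs 1 and 2, and 2.15 and 1.31 on the passage 3 arrays. The mean was 1.64 ± 0.44 (SD, n = 4), a 3.11-fold difference. Both passages overlapped in range, with means of 1.54 ± 0.45 and 1.73 ± 0.60 (SD, n = 2 each). Only 4 of 35563 probes had a higher mean ratio. Across all probes, 0.0226% were past 2-fold higher on all 4 arrays, as Cldn4 was; its ratios chose it, and nothing is read from this share.

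Cldn1 did not show such a difference. Its brighter probe gave log2 ratios of -0.26 and 0.11 at passage 1 and 0.57 and 0.15 at passage 3, with a mean of 0.14 ± 0.34 (SD, n = 4). Its second probe gave -0.64 at passage 1 in pair 1 and 0.35 and 0.24 at passage 3; the spot of the passage 1 array of pair 2 carried an outlier mark and was left out. Both probes were below 0 on the passage 1 array of pair 1 and above 0 on the other arrays with a value.

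The ratio of Cldn4 exceeded that of Cldn1 on the same array by 1.49 and 1.75 on the passage 1 arrays and by 1.58 and 1.16 on the passage 3 arrays. The mean gap was 1.49 ± 0.25 (SD, n = 4), a 2.82-fold difference in ratio. An offset common to all probes of an array cancels in this gap. A dye effect particular to a probe does not cancel and cannot be told apart from genotype. Over 12 alternatives, which include each array left out in turn, the mean gap ranged from 1.36 to 1.60. Other filters on dim probes and a fit with the pair as a block do not move it.

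**Figure D1:**
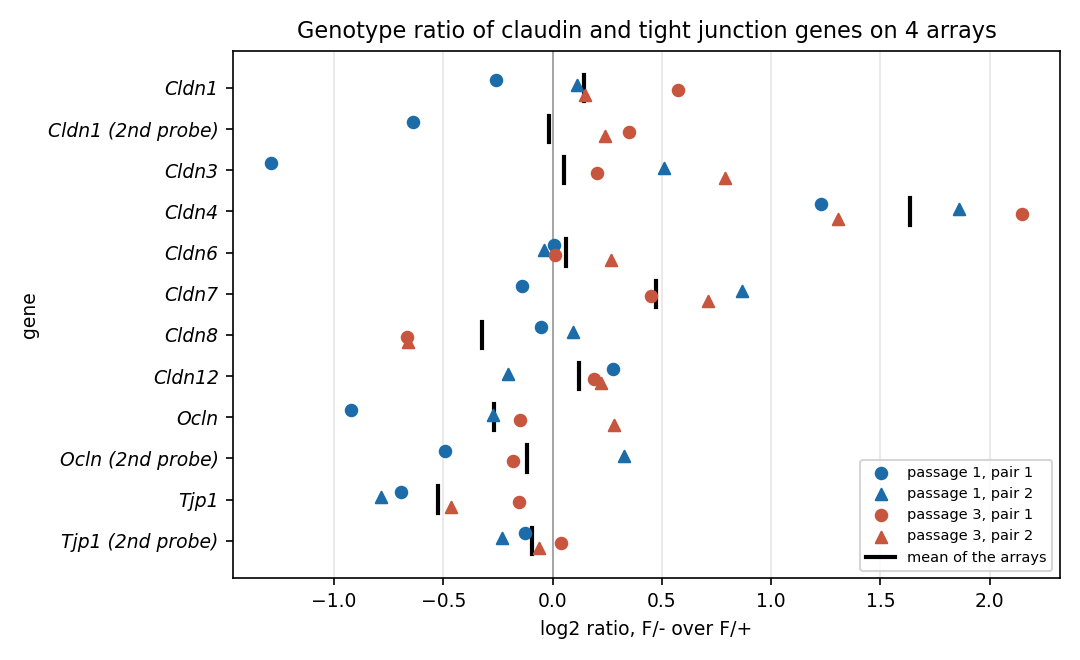
Log2 ratio of F/- over F/+ for each probe of the 9 genes (x axis) on the 4 arrays, with blue for passage 1, red for passage 3, circles for pair 1, triangles for pair 2 and a black bar for the mean of the arrays. The Cldn4 points lie between 1.23 and 2.15, to the right of every other point, while Cldn1 spans 0 and Tjp1's brighter probe lies below 0 on all arrays.

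The other sealing claudins spread around 0. Cldn3, a sealing claudin encoded beside Cldn4, had log2 ratios of -1.29 and 0.51 at passage 1 and 0.20 and 0.79 at passage 3 (mean 0.05 ± 0.93, SD, n = 4). Its mean had no stable sign: without the passage 1 array of pair 1, the mean of the passage means was 0.50, and without that of pair 2 it was -0.40. It also turned to -0.09 without the passage 3 array of pair 2. Cldn7, a claudin of lateral membranes that binds EpCAM, had -0.14 and 0.87, then 0.45 and 0.71 (mean 0.47 ± 0.44, SD, n = 4). Leaving out the passage 1 array of pair 1 or of pair 2 moved that mean to 0.72 or 0.22. Cldn7 was thus low on the same array as Cldn3 and Cldn1 and above 0 on the other arrays.

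Cldn6, a claudin of embryonic epithelia, had log2 ratios of 0.0049, -0.04, 0.01 and 0.27 in the same order of arrays (mean 0.06 ± 0.14, SD, n = 4). Cldn12, which lacks the C-terminal motif by which most claudins bind Tjp1, had 0.28, -0.21, 0.19 and 0.22 (mean 0.12 ± 0.22). Both stayed within 0.3 of 0 on each array. Cldn8, a claudin best known from the distal nephron, had -0.05 and 0.09 at passage 1 and -0.66 and -0.66 at passage 3 (mean -0.32 ± 0.40). Its probe was dim: it was well above background on 2 arrays in Cy3 and on 3 in Cy5, and its mean was -0.999 with the scanner software's own values.

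Tjp1, the scaffold, and Ocln, the strand protein, had mean ratios below 0. The brighter Tjp1 probe gave -0.69 and -0.79 at passage 1 and -0.15 and -0.46 at passage 3 (mean -0.52 ± 0.28, SD, n = 4), below 0 on every array and without overlap between passages. Its dimmer second probe was closer to 0, at -0.13, -0.23, 0.04 and -0.06. Ocln gave -0.92, -0.27, -0.15 and 0.28 (mean -0.27 ± 0.50), with its lowest value on the passage 1 array of pair 1. Its mean was -0.10 without that array and -0.43 without the passage 1 array of pair 2. Its dimmer second probe gave -0.49, 0.33 and -0.18, and the spot of the passage 3 array of pair 2 was left out as an outlier.

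Of the 9 genes, Cldn4 was above 0 and Tjp1 below 0 on 4 of 4 arrays, and 7 had mixed signs. Over all probes 38.9% kept 1 sign on 4 of 4 arrays, 19.0% above 0 and 19.9% below. Array by array, the median ratio of the 9 genes was -0.14, 0.09, 0.19 and 0.27, beside medians over all probes of -0.0076, 0.0026, -0.01 and -0.0056. When each array was centred on its median in place of loess, which follows intensity, Cldn4 was 1.19, Tjp1 -0.72 and Cldn7 0.04. With that centring the mean signs of Cldn1 (-0.18), Cldn3 (-0.37), Cldn6 (-0.08) and Cldn12 (-0.08) turned below 0, so no direction is given for these 4 genes.

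Whether the genotype ratio differed between passages was tested over all probes with limma, and none of 35563 probes passed (0% at an adjusted p under 0.05, 5.83% at an unadjusted p under 0.05). None of the 9 genes passed, and 2 of 9 had an unadjusted p under 0.05. Cldn8 had the smallest p of the 9, with a shift of -0.68 ± 0.11 (SE) from passage 1 to passage 3 (limma, adjusted p = 0.82). Cldn4 differed by 0.18 ± 0.35 (SE; limma, adjusted p = 0.971). Over the 9 genes the adjusted p-values lay between 0.82 and 0.971.

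Cldn1 fell and Cldn6 rose with passage in both genotypes, by 2.28 to 3.08-fold, although the fall of Cldn1 in F/- cells only just passed. Within each genotype, levels at passage 3 were compared with those at passage 1 by limma's separate-channel fit, a contrast that the choice of genes did not use directly. Normalised log2 intensities are given, and levels of different probes are not compared. In F/- cells 3 of 9 genes passed (Cldn6 and Cldn7 rose, Cldn1 fell), where 5.08% of all probes passed (2.85% higher, 2.23% lower). In F/+ cells 3 of 9 passed (Cldn6 and Cldn8 rose, Cldn1 fell), where 5.61% of all probes passed (3.17% higher, 2.44% lower). Cldn1 and Cldn6 passed in both genotypes in the same direction, as did 3.91% of all probes. Both genotypes share arrays, so array effects enter both changes. The labels name separate mice, but 2 per genotype, and the p-values measure only the spread between these samples.

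Cldn1, the main barrier claudin of skin, fell in both genotypes. In F/- cells its log2 intensity was 13.31 and 13.58 at passage 1 and 12.18 and 12.33 at passage 3. In F/+ cells it was 13.57 and 13.47, then 11.61 and 12.18. Both genotypes were lower at passage 3 in both pairs, with no overlap between passages. The fitted change was -1.19 ± 0.26 (SE) in F/- cells (2.28-fold lower; limma, adjusted p = 0.0483) and -1.62 ± 0.26 in F/+ cells (3.08-fold lower; limma, adjusted p = 0.0157). With the animal as a block, the F/- change no longer passed (limma, adjusted p = 0.0881). It did not pass in 9 of 13 alternatives, with adjusted p-values up to 0.34, and kept its direction, from -1.33 to -1.05. The second probe, which had a left-out spot at passage 1 and was not fitted, fell by -1.41 in F/- and by -2.40 in F/+ cells of pair 1.

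Cldn6 rose in both genotypes. Its log2 intensity was 7.45 and 7.18 in F/- cells at passage 1 and 8.97 and 8.74 at passage 3. In F/+ cells it was 7.45 and 7.22, then 8.95 and 8.47. Every passage 3 value lay above every passage 1 value. The change was 1.54 ± 0.20 (SE) in F/- cells (2.90-fold; limma, adjusted p = 0.0077) and 1.38 ± 0.20 in F/+ cells (2.60-fold; limma, adjusted p = 0.0103).

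Cldn7 went from 12.94 and 13.57 to 15.44 and 15.09 in F/- cells. In F/+ cells it went from 13.08 and 12.71 to 14.99 and 14.38. Passage 3 was above passage 1 in both pairs of both genotypes. The change was 2.01 ± 0.42 (SE) in F/- cells (4.03-fold; limma, adjusted p = 0.0415). In F/+ cells it was 1.79 ± 0.42 (3.46-fold) and missed the threshold (limma, adjusted p = 0.0553), but passed with the animal as a block (limma, adjusted p = 0.0409).

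Cldn8 was dim, and its rise passed in F/+ cells. In F/+ cells its log2 intensity was 6.26 and 6.21 at passage 1 and 7.09 and 7.50 at passage 3, a change of 1.06 ± 0.18 (SE; limma, adjusted p = 0.0195). The F/+ spots were well above background on 1 of 2 arrays at passage 1 and on 2 of 2 at passage 3. In F/- cells it was 6.21 and 6.31, then 6.43 and 6.84, a change of 0.37 ± 0.18 (limma, adjusted p = 0.298), with 1 of 2 arrays above background at each passage. The size depended on the processing, from 0.81 to 3.04 in F/+ and from 0.12 to 1.52 in F/- cells over 12 alternatives, so no fold is given. The difference between these changes is the late minus early contrast given above, which did not pass.

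The change of Cldn4 with passage was split by pair. In F/- cells its log2 intensity was 13.95 and 15.24 at passage 1 and 16.05 and 14.76 at passage 3, so pair 1 changed by 2.10 and pair 2 by -0.48. In F/+ cells it was 12.72 and 13.38, then 13.91 and 13.45, with changes of 1.18 and 0.07. The lowest F/- value, in pair 1 at passage 1, exceeded every F/+ value. The fitted changes were 0.81 ± 0.54 (SE; limma, adjusted p = 0.44) in F/- and 0.63 ± 0.54 (limma, adjusted p = 0.542) in F/+ cells.

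**Figure D2:**
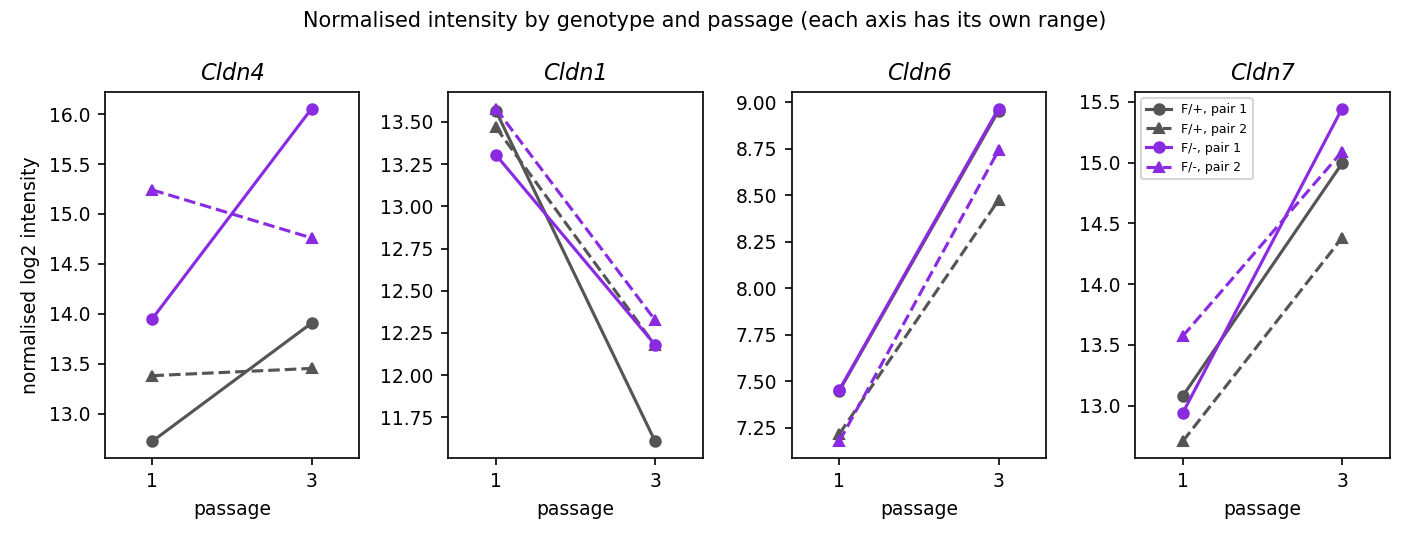
Normalised log2 intensity (y axis, own range in each panel) of Cldn4, Cldn1, Cldn6 and Cldn7 at passages 1 and 3 in F/- (purple) and F/+ (grey) cells, with a line per mouse pair, solid for pair 1 and dashed for pair 2. Cldn4, which was chosen by its genotype ratio, separates the genotypes. Its F/- values run from 13.95 to 16.05 and its F/+ values from 12.72 to 13.91. Cldn1, Cldn6 and Cldn7 separate the passages.

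For the remaining 4 genes no passage change passed. Cldn3 changed by 1.36 ± 0.72 (SE) in F/- (limma, adjusted p = 0.339) and by 0.47 ± 0.72 in F/+ cells (limma, adjusted p = 0.735). Its F/- levels went from 12.68 and 13.89 to 14.79 and 14.49, and its F/+ levels from 13.97 and 13.38 to 14.58 and 13.70. Passage 3 lay above passage 1 in F/- cells, and the passages overlapped in F/+ cells.

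Tjp1 levels were 11.18 and 10.998, then 10.70 and 11.20 in F/- cells, and 11.88 and 11.78, then 10.85 and 11.66 in F/+ cells. The passages overlapped in F/- cells only, and the changes were -0.14 ± 0.26 (SE; limma, adjusted p = 0.781) and -0.58 ± 0.26 (limma, adjusted p = 0.256). For the dimmer Tjp1 probe passage 3 lay below passage 1 in both genotypes, by -0.31 ± 0.18 (limma, adjusted p = 0.395) and -0.47 ± 0.18 (limma, adjusted p = 0.203). Ocln levels were 9.56 and 9.77, then 9.54 and 9.92 in F/- cells, and 10.49 and 10.05, then 9.69 and 9.64 in F/+ cells. Its changes were 0.06 ± 0.32 (limma, adjusted p = 0.929) and -0.60 ± 0.32 (limma, adjusted p = 0.326). The dimmer Ocln probe, not fitted for a left-out spot, changed by 0.09 and -0.22 in pair 1. Cldn12 changed by 0.30 ± 0.26 (limma, adjusted p = 0.555) and 0.13 ± 0.26 (limma, adjusted p = 0.804), with overlap in both genotypes.

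By overlap alone, passage 3 lay above passage 1 for 4 genes and below it for 1 in F/- cells, and above for 4 and below for 3 in F/+ cells. Over all probes 56.8% did not overlap between passages in F/- cells (29.0% above, 27.7% below) and 52.0% in F/+ cells (27.0% above, 24.9% below). The count of 5 of 9 in F/- cells was near that background, and 7 of 9 in F/+ cells was above it.

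**Figure D3:**
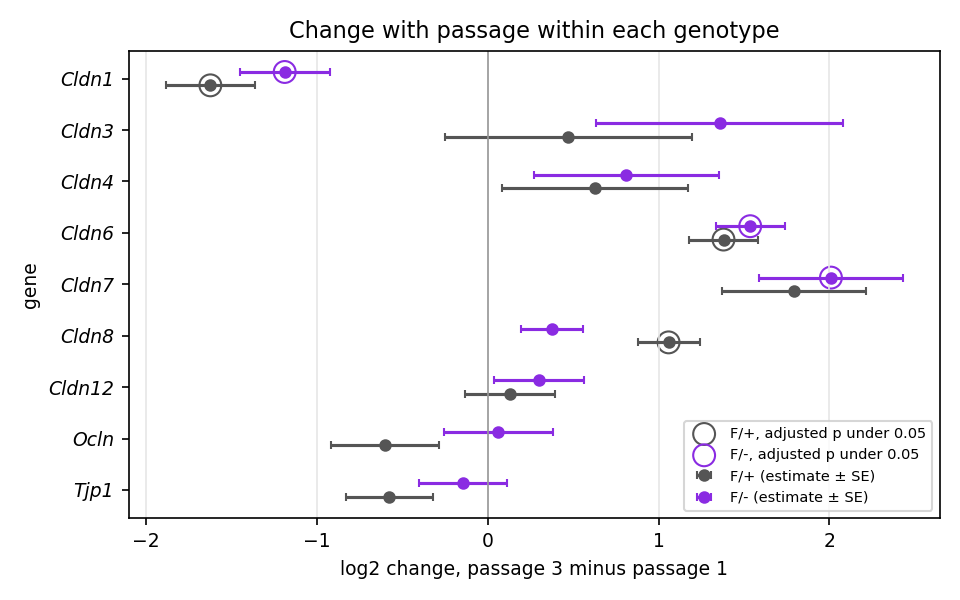
Fitted log2 change from passage 1 to passage 3 (x axis, estimate ± SE) of the 9 genes in F/- (purple) and F/+ (grey) cells, with rings around changes at an adjusted p under 0.05 over all probes. Cldn1 lies left of 0 in both genotypes, at -1.19 and -1.62, and Cldn6 and Cldn7 lie right of 0, between 1.38 and 2.01.

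These passage calls rest on both passage 1 arrays, as do most of those of the related genes described below. The share of all probes that passed without an array was not counted for the passage changes. Without the passage 1 array of pair 1, no gene of the 9 passed in either genotype, and the same held without that of pair 2; the adjusted p-values of the Cldn1, Cldn6, Cldn7 and Cldn8 calls then lay between 0.0907 and 0.34. Without the passage 3 array of pair 1 or of pair 2, Cldn7 in F/- cells did not pass (limma, adjusted p = 0.0743 and 0.0607), and Cldn8 in F/+ cells did not pass without that of pair 2 (limma, adjusted p = 0.0765).

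Markers of other cell states moved with passage as well. Over all probes 2.85% rose and 2.23% fell in F/- cells, and 3.17% rose and 2.44% fell in F/+ cells, at an adjusted p under 0.05. Among 5 simple epithelium keratins 2 rose in F/- cells, and 3 rose and 1 fell in F/+ cells. Krt8 rose by 4.60 in F/- and 4.46 in F/+ cells and Krt18 by 2.16 and 2.61 on the log2 scale (limma, adjusted p between 0.000269 and 0.00224). The mean log2 intensity of that list went from 11.44 to 11.61 at passage 1 to 13.08 to 13.40 at passage 3 across both genotypes. Of 9 suprabasal keratinocyte genes, 7 of them above background in every channel, 3 fell in F/- and 4 in F/+ cells, and the list mean went from 9.88 to 10.84 at passage 1 to 8.08 to 8.78 at passage 3. Krtdap, a keratinocyte differentiation protein, changed by -5.34 and -5.90 and loricrin (Lor) by -2.02 and -3.48. Other suprabasal genes did not fall so, with Krt1 at -0.19 and -0.20, Ivl at 0.64 and 0.84 and Tgm3 at 0.20 and 0.31. None of them passed. The basal keratinocyte list, with all 7 genes above background in every channel, had means of 14.4 to 14.9 throughout and no gene past the threshold. Of 9 macrophage genes, 3 fell in F/- and 5 in F/+ cells, and of 7 melanocyte genes 4 and 3 fell. The part of these markers in the claudin changes was not tested.

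By genotype, 3 of 9 macrophage genes were higher in F/- cells in the mean of both passages. Over all probes 8.84% passed, 5.85% higher and 2.99% lower. These were Marco (1.51), Pf4 (1.497) and Lyz2 (1.27; limma, adjusted p between 0.0257 and 0.0363). For Pf4 and Lyz2 the ratio was larger at passage 3 (2.45 and 2.21) than at passage 1 (0.55 and 0.33), and the second Lyz2 probe had a mean of 0.44. Of the 9 macrophage genes 8 had a mean ratio above 0, while Cd68, at -0.03, did not. The macrophage list mean was 10.60 to 11.18 in F/- and 10.27 to 10.45 in F/+ channels at passage 1, and 9.06 to 9.53 and 8.04 to 8.08 at passage 3, with all 9 genes above background in each. Of 7 basal keratinocyte genes 4 were lower in F/- cells, among them Krt14 (-0.66) and Krt5 (-0.60), while Itga6 (0.29), Itgb4 (0.18) and Trp63 (0.04) did not pass. Of 9 suprabasal genes 3 were lower (Krtdap, Sbsn and Lor), the second probe of Sbsn stood at 0.33, and Ivl, at 0.35, did not pass. The ratio of Lor was -1.57 at passage 1 and -0.12 at passage 3. Late minus early did not pass for Pf4, Lyz2 or Lor (limma, adjusted p = 0.82 for each). The part of these markers in the Cldn4 ratio was not tested.

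The other genes of the junction were followed in a list of 86 genes, of which 83 had a probe that passed the filter. By genotype, in the mean of both passages, 7 were higher and 2 lower in F/- cells, beside 5.85% and 2.99% of all probes. That fit takes the 4 arrays as separate samples, although they come from 2 pairs of mice. With the arrays of a pair averaged first, none of the list and none of 35464 probes passed, and the 9 calls had adjusted p-values of 0.0509 to 0.0678 (limma). The list median was 0.09, against -0.01 over all probes. With median centring 3 were higher and 8 lower, so the balance of directions turned with the scaling. At passage 1 and at passage 3 alone none passed with limma (0% of all probes each), although 18 and 23 of 83 had an unadjusted p under 0.05, where 20.6% and 19.99% of all probes did.

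Of 15 other claudins and claudin-like genes none was higher and 1 was lower, the claudin domain gene Cldnd1, at -0.57 ± 0.21 (SD, n = 4; limma, adjusted p = 0.0374). Its dimmer second probe gave -0.14. Among claudin partners, Epha2, a receptor kinase that can phosphorylate claudin-4, was higher by 0.82 ± 0.19 (limma, adjusted p = 0.0257), below 0 on no array. Over 13 alternatives its ratio ranged from 0.35 to 0.93, and 9 of them kept the call. Epcam, which binds Cldn7, was higher by 0.62 ± 0.23 (limma, adjusted p = 0.0387), a value that was 0.03 with median centring. The membrane protease gene St14 was higher by 0.32 ± 0.14 (limma, adjusted p = 0.039), lost the call with the pair as a block (limma, adjusted p = 0.057), and turned to -0.12 with median centring, while its second probe gave 1.07. The zinc finger gene Ovol1, an epithelial repressor, was lower by -0.56 ± 0.37 (limma, adjusted p = 0.0261), with -0.05 for its second probe.

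Among genes of the plaque, polarity and adherens junction groups, Arhgef2, a nucleotide exchange factor held at the junction, was higher by 0.68 ± 0.23 (limma, adjusted p = 0.0281), and its other probes gave 0.59 to 1.02. Amotl2, an angiomotin family scaffold, was higher by 0.36 ± 0.09 (limma, adjusted p = 0.0339) and stood at 0.03 with median centring. Patj, a scaffold of the Crumbs complex, was higher by 0.44 ± 0.12 (limma, adjusted p = 0.0335), with other probes at 0.08 to 0.11; it was 0.27 and did not pass with median centring (limma, adjusted p = 0.142), and did not pass without any 1 of the arrays. Jup, the junction protein plakoglobin, was higher by 0.59 ± 0.25 (limma, adjusted p = 0.0458), and not past the threshold with the pair as a block (limma, adjusted p = 0.0531) or with median centring (0.35; limma, adjusted p = 0.139). No gene of the list passed without the passage 1 array of either pair or the passage 3 array of pair 1, whereas 16 passed without the passage 3 array of pair 2. Over all probes these settings gave 0 each and 3966 of 35563, so the list moved as all probes did.

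**Figure D4:**
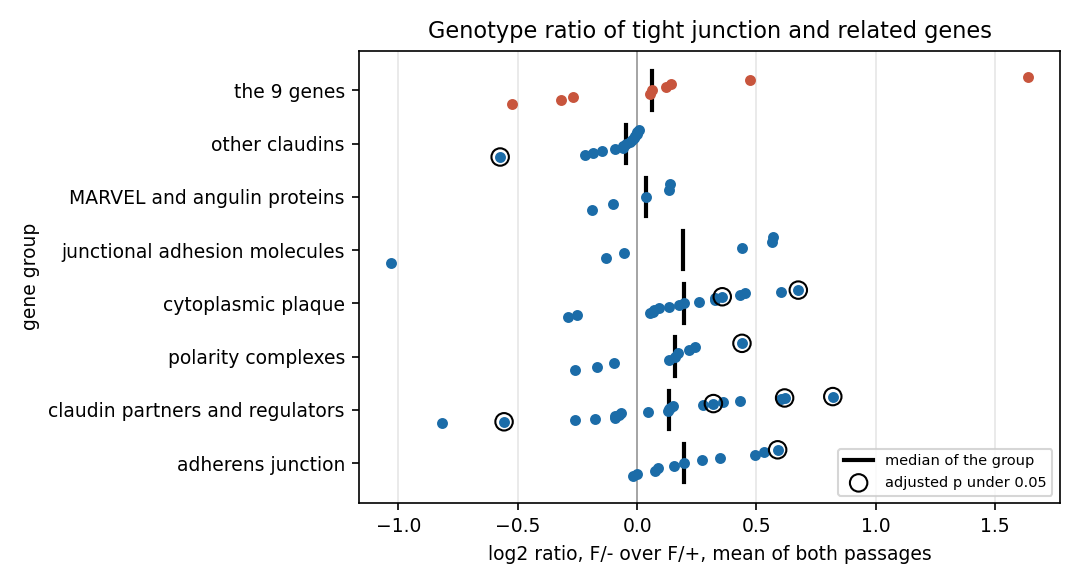
Mean log2 ratio of F/- over F/+ (x axis) of the 9 genes (red) and of 83 related genes by group (blue), 1 point per gene, with a bar at the group's median and rings at an adjusted p under 0.05 for the related genes. Cldn4 stands at 1.64, to the right of all related genes, of which Epha2 is the highest at 0.82.

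With passage, 4 of 83 list genes rose and 5 fell in F/- cells, where 2.85% of all probes rose and 2.23% fell. In F/+ cells 5 rose and 6 fell, beside 3.17% and 2.44% of all probes. Of the list genes, 8 passed in both genotypes, as did 3.91% of all probes. The genes that rose in both were Ildr1, an angulin of tricellular contacts (2.33 in F/- and 1.91 in F/+ on the log2 scale), Amot (2.83 and 2.25), the adhesion receptor Nectin3 (1.92 and 1.80) and vinculin, Vcl (1.74 and 1.49). Those that fell in both were Ovol1 (-3.75 and -4.37), Grhl1, a grainyhead factor of differentiating epidermis (-2.65 and -2.66), the membrane protease gene Prss8 (-2.20 and -2.26) and Klf4, a barrier transcription factor (-1.74 and -2.13). Their adjusted p-values in limma lay between 0.000108 and 0.0445. The other probes of Ildr1 and Amot changed by 0.32 and -0.11 in F/- cells.

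In F/+ cells and not in F/- cells, Ovol2 passed at 0.99 and Pard6b, a polarity protein, at -0.86. In F/- cells and not in F/+ cells, the scaffold gene Magi2 passed at -2.56. With the animal as a block, Ildr1 in F/+ (limma, adjusted p = 0.0568), Pard6b (0.076) and Magi2 (0.0708) did not pass. None of these differences between genotypes passed as late minus early, where the smallest adjusted p of a list gene was 0.82. Without the passage 1 array of either pair, Ovol1 was the list gene that passed in each genotype (limma, adjusted p between 0.0175 and 0.0225). None of the 15 other claudins passed in either genotype with limma, with 3 in F/- and 1 in F/+ cells at an unadjusted p under 0.05, where 20.6% and 20.9% of all probes were.

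The genes whose intensity followed Cldn4 most closely over the 8 channels were Bcl2l1 (Pearson r = 0.983), Jup (0.973), Lysmd1 (0.969), Fancg (0.968) and Numa1 (0.961). For Cldn1 they were Il1r1 (0.987), Irx2 (0.985), Trpv3 (0.983), Tfcp2l1 (0.982) and Krt80 (0.981). They were picked as the highest among 8170 genes that were above background in every channel and varied by at least 1 log2 unit. The 8 values share 4 arrays, 2 pairs of mice and 2 passages, and 16 genes for Cldn4 and 92 for Cldn1 had r above 0.95. The 5 genes beside Cldn4 and the 5 beside Cldn1 did not include the same gene. Cldn4 and Cldn1 did not follow each other over these channels, so no gene could lie this close to both, and nothing is read from it.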

How the data were processed

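Per the submitters' processing notes, the arrays were read out by Agilent Feature Extraction 9.1.3.1. Per the file headers the deposited files give, for each spot, the raw intensity of both dyes (mean signal and local background) and a log10 ratio (Cy5 over Cy3) after the software's own normalization. The authors' value table holds these log10 ratios with the sign turned (largest gap 4.96e-06; medians -0.00223, 0, 0 and -0.000733).

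Raw intensities were corrected with normexp (offset 50) and normalised by loess within each array in limma 3.58.1 (R 4.3.3). Control and outlier spots had weight 0, and outlier spots were then left out. Spots of a probe were averaged. A probe was kept if 2 or more arrays had it well above background in either channel and no more than 1 array lacked a value. The probe with the highest mean intensity led a gene. Ratios are log2 of F/- (Cy3) over F/+ (Cy5), as in the table of the authors. Probes were named through RefSeq (21692 by accession, 5445 by symbol, 2592 by older symbol), and 5834 kept the deposited name.

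Genotype was fitted with lmFit and eBayes over 4 arrays with passage as the group. Passage changes came from lmscFit after Aquantile normalization (35464 probes, correlation 0.741 between the channels of a spot). Residual and prior degrees of freedom were 2 and 2.81 for ratios, 4 and 3.36 for channels. Tests were two-sided, adjusted by Benjamini-Hochberg over all probes and called at 0.05. The fits were tested on simulated data. Per the series' design text the same mice gave both passages, which makes the pair numbers a pairing; same-numbered samples had deviations that correlated at -0.00047 for ratios, 0.251 in F/- and 0.0307 in F/+ channels. An alternative fit took the pair or animal as a block. The 4 arrays shared 1 slide and 1 scan.

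The 9 genes and the gene lists were chosen with earlier results of these data known. All 9 genes were named with every probe, list genes where they passed a test (1 such gene is counted but not reported here by name), and for Cldn4 and Cldn1 the 5 genes of highest correlation.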

Additional observations from a re-analysis of the deposited data

Results flagged for a closer look

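In 3 genes of the junction list, both passage 1 arrays had a genotype ratio of one sign and both passage 3 arrays one of the other. The share of all probes with such a switch was not counted, so nothing is read from the number of these genes. Prkci, an atypical protein kinase C of the Par complex, moved by 0.50 from passage 1 to passage 3, from below to above 0. Trp63, the p63 factor of basal keratinocytes, moved by -0.47 and Ovol2 by -0.39, both from above to below 0. The test of the difference, late minus early in limma, did not pass for any of them (adjusted p = 0.825, 0.864 and 0.823). With 2 arrays per passage, no value could be checked for a sample that stands apart.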

How the results depend on the processing

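Over 12 alternatives (other background corrections, centring, filters and probe rules, the scanner software's values, a replicate block, and each array left out), the Cldn4 ratio stayed between 1.19 and 1.85 and its gap to Cldn1 between 1.36 and 1.60. The count of 2 genes with 1 sign on all arrays ranged from 2 to 5 without 1 array, where fewer arrays need to share a sign. Of 35 single-gene calls, 453 of 454 alternative values kept their sign, and 148 did not pass the threshold. The exception in sign was St14, at -0.12 with median centring. These calls were picked for passing, and every setting reuses the same arrays. The filters and the block do not move the estimate of a probe with values on all arrays. The signs kept are therefore no independent support. Without 1 array, the list count by genotype (9) ranged from 0 to 16, the passage count of the 9 genes (3 in each genotype) from 0 to 2 in F/- and 0 to 3 in F/+, and the list counts with passage from 1 to 14 in F/- (9) and 1 to 26 in F/+ (11). With loess alone and no normalization between arrays, the passage counts were 1 and 1 of the 9 genes, and 5 (F/-) and 3 (F/+) of the list. Median centring left 1 of the 9 genes in F/-, an offset of 0 gave 14 list genes in F/-, and averaging the arrays of a pair first left 0 list genes by genotype; the cause was not tested. With the replicate block the list counts were 13 by genotype, 12 (F/-) and 10 (F/+), with 2 and 4 of the 9 genes; beside the calls given in the text the block ended 1 other. Without 1 array, the channel correlation of all 4 arrays was used, and a lone array was assumed to vary like the rest. The number of arrays limits precision, and Cldn8 lay close to background.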

Other observations

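Some list genes outside the naming rule were singled out after their values were seen. Cxadr is an adhesion molecule of the junction that also serves as a virus receptor. Its log2 ratios of F/- over F/+ were -0.84 and -1.72 at passage 1 and -1.85 and 0.30 at passage 3. Only the passage 3 array of pair 2 was above 0. The mean was the lowest of the list, at -1.03 (limma, adjusted p = 0.158). The other Cxadr probes did not share this low mean, with means of -0.05 and 0.47. Cldn23 had ratios of -0.82, -0.25, -0.12 and 0.45, close on each array to those of Ocln.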
